A study of Homo sapiens with 18 samples.

Results

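The collagen genes are the 44 protein-coding genes whose symbol is COL, a number, A and a number. They were found by matching the Ensembl identifiers of the count tables, without version, to GENCODE 29. All 44 were listed in both tables, among 60603 genes for H1650 and 60649 for PC9. RNA was measured by sequencing in brain metastatic derivatives of H1650 and PC9, human EGFR-mutant lung cancer cell lines. Each line had 3 groups of 3 libraries. The Tr-BrM S100A9-inh group carried the condition Tr-BrM and the treatment S100A9-inh, the Tr-BrM control group the same condition with the treatment control, and the BrM control group the condition BrM with the treatment control. All groups are therefore brain metastatic (BrM) derivatives, and no parental cells were compared here. The sources used here do not say what Tr stands for, how S100A9 was inhibited, or whether a derivative is 1 clone or a population.

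Collagens are secreted or membrane-bound proteins in which 3 chains wind into a triple helix built on repeats that begin with glycine. Chains are hydroxylated, glycosylated and folded in the endoplasmic reticulum, exported in large carriers and, for the fibrillar types, trimmed outside the cell before they assemble. Fibrillar collagens give tissue its tensile strength, type IV collagens form the network of basement membranes, and the others link these structures to each other or to cells. In the lung most fibrillar collagen is made by fibroblasts, while epithelial cells contribute basement membrane chains and the transmembrane collagen of hemidesmosomes. Tumour cells can make collagens of either kind.

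S100A9, the gene named as the target, served as the check of the labels. In H1650 it ranged from 88.2 to 105 CPM in S100A9-inh libraries, 292 to 336 CPM in Tr-BrM controls and 199 to 217 CPM in BrM controls. PC9 had 30.4 to 35.5 CPM, 738 to 759 CPM and 119 to 127 CPM in the same groups. CPM is a gene's count relative to the TMM-adjusted depth of its library. Libraries held 17.40 to 27.11 M counts in H1650 and 18.17 to 21.75 M in PC9. Replicate 1 of the PC9 S100A9-inh group stood apart from its fellow replicates, at a chi-square per degree of freedom of 5.94 and 5.366, against 1.998 between replicates 2 and 3. Levels are given per library or as mean ± SD (n = 3), and a change is a log2 fold change ± SE, from 3 against 3 libraries. "Rose" and "fell" are used of genes with an adjusted p under 0.05 in edgeR's quasi-likelihood test, adjusted by Benjamini-Hochberg over all tested genes of the line. Whether the 3 libraries of a group are separate cultures is not said in the labels, so p-values reflect the spread among these libraries, which may be technical. A change "between the controls" is that of Tr-BrM controls against BrM controls.

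Counting a gene as expressed where a group mean reached 1 CPM, 31 of the 44 collagen genes were expressed in H1650 and 24 in PC9. They shared 23 genes. By group, 30, 29 and 27 reached 1 CPM in H1650 S100A9-inh, Tr-BrM controls and BrM controls. In PC9 24, 20 and 21 did, in the same order of groups. COL1A2, COL3A1, COL5A3, COL6A3, COL11A2, COL14A1, COL22A1 and COL24A1 were expressed in H1650 alone, COL13A1 in PC9 alone, and 12 in neither line. By class, 9 of 11 fibrillar collagens were expressed in H1650 and 4 of 11 in PC9. All 6 type IV chains were expressed in both lines. COL4A3 was under 1 CPM in H1650 BrM controls, as were COL4A3 and COL4A4 in PC9 Tr-BrM controls. Of the 10 fibril-associated collagens, which sit on the surface of fibrils, 6 were expressed in H1650 and 4 in PC9. Type VI, the beaded filament collagen, had 3 of 5 genes expressed in H1650 and 2 of 5 in PC9. Type VII, both multiplexins (types XV and XVIII) and types XXVI and XXVIII were expressed in both lines. Of the 3 short chain collagens, COL8A1 was expressed in both lines. Of the 4 transmembrane collagens, COL17A1 was expressed in both lines.

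Genes too low to test were close to silent, while some tested genes stayed under the 1 CPM level, such as COL21A1 in H1650 (up to 0.905 CPM). In PC9, COL6A5, COL9A1 and COL19A1 had no count in any of 9 libraries, and a total of 3 counts would have been 0.0164 CPM. The highest group mean among genes too low to test was 0.466 CPM in H1650 (COL6A6, in Tr-BrM controls) and 0.258 CPM in PC9 (COL1A2, in BrM controls). A filter on low counts left 36 members tested in H1650 and 25 in PC9. A member that passed this filter through 1 high group had to differ, so the counts of calls below describe the members and are not support for a change of the family. Intervals, floors and limits cover counting error only.

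**Figure D1:**
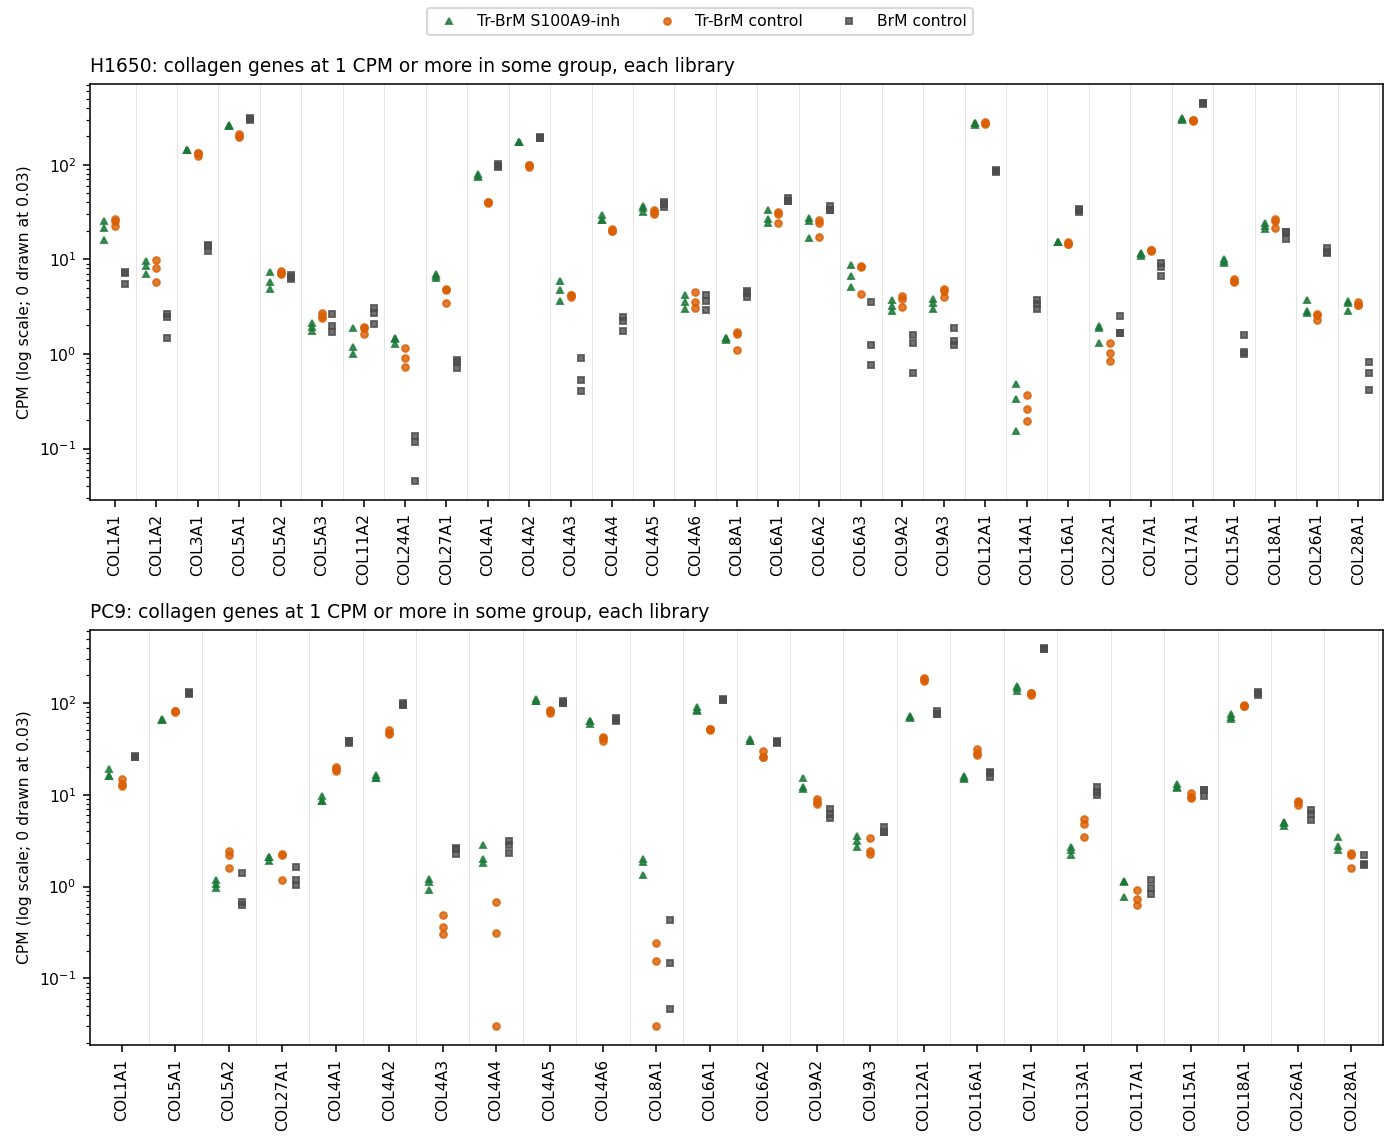
Level of each expressed collagen gene in every library (CPM, log axis, 0 drawn at 0.03), with H1650 above and PC9 below; green triangles are Tr-BrM S100A9-inh, orange circles Tr-BrM control and grey squares BrM control. H1650 COL3A1 lies between 122 and 144 CPM in the 6 Tr-BrM libraries and between 12.2 and 14.2 CPM in the BrM controls, while PC9 COL7A1 lies between 122 and 153 CPM in the 6 Tr-BrM libraries and between 384 and 391 CPM in the BrM controls.

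The lines differed in which collagen led. Per kilobase of merged exon, COL17A1 ranked first in every H1650 group, at 42.7 ± 1.001 CPM per kb in S100A9-inh, 41.8 ± 0.517 in Tr-BrM controls and 63.0 ± 0.702 in BrM controls. COL17A1 encodes the collagen of hemidesmosomes, which anchors basal epithelial cells to the basement membrane. COL5A1 followed in H1650 S100A9-inh and BrM control libraries, at 23.2 ± 0.233 and 27.3 ± 0.680 CPM per kb. In the Tr-BrM controls COL12A1 (22.2 ± 0.622) and COL3A1 (18.9 ± 0.862) ranked above COL5A1 (18.1 ± 0.624). That order depended on the length used: with the length of the transcript with the longest coding sequence, COL5A1 came first of these (23.9 ± 0.824), before COL12A1 (23.7 ± 0.663) and COL3A1 (23.3 ± 1.06), all within 1 SD of each other. In PC9 the first place went to COL6A1 in S100A9-inh (15.9 ± 0.735 CPM per kb), COL12A1 in Tr-BrM controls (14.4 ± 0.450) and COL7A1 in BrM controls (34.9 ± 0.307). COL7A1 encodes the anchoring fibrils beneath epithelial basement membranes. The summed level of all 44 genes was 1474 to 1491 CPM in S100A9-inh, 1273 to 1318 CPM in Tr-BrM controls and 1364 to 1384 CPM in BrM controls of H1650. In PC9 these sums were 729 to 764 CPM, 823 to 843 CPM and 1241 to 1270 CPM, so the groups did not overlap in either line.

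Tr-BrM controls against BrM controls asks what differs between both kinds of brain metastatic derivative. In H1650 the fibrillar genes COL1A1, COL1A2 and COL3A1, the type IV chains COL4A3 and COL4A4 and the fibril-associated COL12A1 rose, while COL4A1, COL4A2, COL17A1, COL5A1 and COL14A1 fell. In PC9 COL7A1, COL1A1, COL6A1 and all 6 type IV chains fell, and 5 collagens rose, COL12A1 among them. Of the genes named for H1650, COL12A1, COL4A1, COL4A2 and COL5A1 moved the same way in PC9, while COL1A1, COL4A3 and COL4A4 rose in H1650 and fell in PC9. Of the 36 members tested in H1650, 19 rose and 13 fell, where 63.9% of all tested genes were called (32.2% higher and 31.7% lower). Of the 25 tested in PC9, 5 rose and 14 fell, where 59.9% of all tested genes were called (29.6% higher and 30.3% lower). The shares called were thus large for genes in general. The median log2 change over the tested members was 0.53 in H1650 and -0.61 in PC9, against -0.0011 and 0.0014 over all tested genes. Over the members that reached 1 CPM in a group it was 0.29 for 31 genes in H1650 and -0.54 for 24 genes in PC9. Changes of at least 1 on the log2 scale were seen upward in 17 and downward in 5 members in H1650 (12.9% and 7.69% of tested genes), and upward in 2 and downward in 6 in PC9 (5.91% and 6.78%).

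Between lines the change itself was compared with an interaction contrast over all 18 libraries, given as PC9 minus H1650. Of 24 members tested in both lines, 17 differed, 4 with the PC9 change above that in H1650 and 13 with it below. Of the 14888 genes tested in both lines, 64.7% differed (33.7% above and 31.0% below). In the whole joint fit 20 of 37 members differed, where 54.6% of 19076 genes did. Of the 17, 10 had opposite signs in the lines, counting COL15A1, not called in PC9 (-0.15), and COL4A6, not called in H1650 (0.023). The share of all genes with opposite signs was not computed, so the count describes the members only. COL12A1 and COL9A2 rose in both lines, and COL4A1, COL4A2, COL4A5, COL5A1, COL6A1 and COL6A2 fell in both. COL1A1, COL4A3, COL4A4, COL7A1, COL9A3 and COL18A1 rose in H1650 and fell in PC9. COL16A1 and COL26A1 fell in H1650 and rose in PC9. For COL4A2 the difference between lines was -0.032 ± 0.0616, for COL5A1 -0.060 ± 0.0531 and for COL4A5 -0.064 ± 0.0768, none of them past the threshold.

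**Figure D2:**
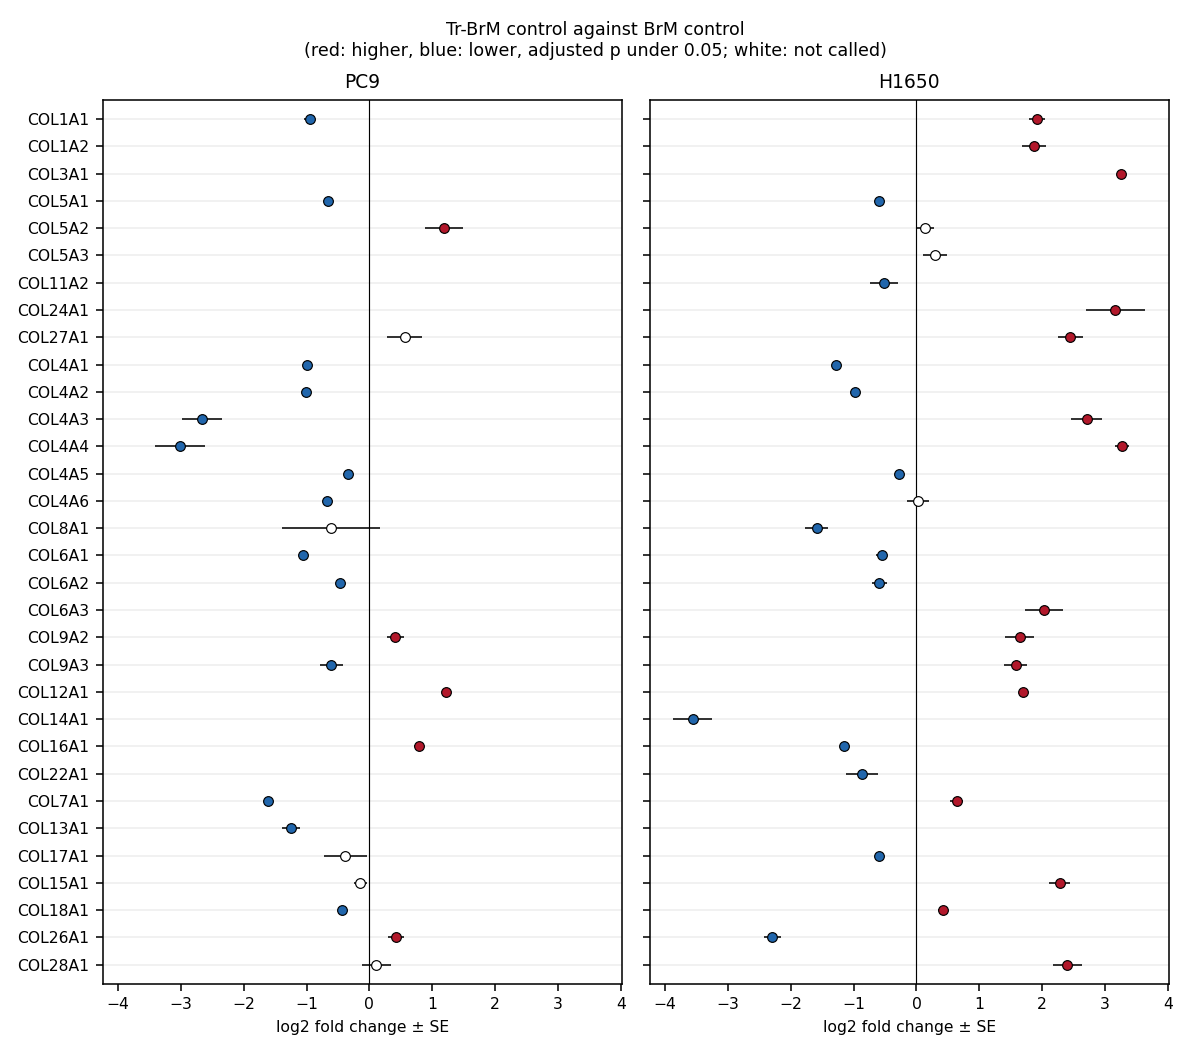
Log2 fold change ± SE of each expressed collagen gene in Tr-BrM controls against BrM controls, with PC9 left and H1650 right on the same axis; red marks genes called higher, blue genes called lower and white genes not called. COL4A3 and COL4A4 lie at -2.66 and -3.02 in PC9 and at 2.71 and 3.26 in H1650.

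Type IV collagens form basement membranes from 6 chains, encoded as 3 pairs of neighbouring genes that start close together on opposite strands. COL4A1 and COL4A2 make the network found in nearly all basement membranes, COL4A3 and COL4A4 join COL4A5 in the kidney glomerulus and the lung alveolus, and COL4A5 and COL4A6 occur together in skin and smooth muscle. COL4A1 (ENSG00000187498, chromosome 13, 110148963 to 110307233, reverse strand, all positions GRCh38) stood in H1650 at 79.2, 75.3 and 73.4 CPM in S100A9-inh, 40.7, 40.2 and 39.8 CPM in Tr-BrM controls and 95.2, 96.5 and 102 CPM in BrM controls. COL4A2 (ENSG00000134871, chromosome 13, 110305812 to 110513209, forward strand) stood at 175, 174 and 174 CPM, 93.7, 99.1 and 100.3 CPM and 189, 194 and 191 CPM in the same groups. Both genes were lowest in the Tr-BrM controls, intermediate in S100A9-inh and highest in BrM controls, with no overlap between groups. COL4A1 fell by 1.28 ± 0.0445 between the controls (adjusted p = 2.62e-20), and COL4A2 by 0.97 ± 0.0343 (adjusted p = 4.23e-20). Both rose in S100A9-inh against Tr-BrM controls, by 0.92 ± 0.0446 and 0.83 ± 0.034.

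PC9 placed the pair in another order. COL4A1 was at 8.61, 9.59 and 8.43 CPM in S100A9-inh, 18.2, 20.0 and 18.8 CPM in Tr-BrM controls and 36.7, 38.3 and 38.1 CPM in BrM controls. COL4A2 was at 16.4, 15.4 and 15.04 CPM, 50.8, 47.1 and 45.5 CPM and 93.6, 98.4 and 95.2 CPM. S100A9-inh was lowest, Tr-BrM controls intermediate and BrM controls highest for both genes, again with no overlap. In S100A9-inh against Tr-BrM controls COL4A1 changed by -1.09 ± 0.087 (adjusted p = 5.48e-12) and COL4A2 by -1.62 ± 0.0655 (adjusted p = 6.40e-19). The change under S100A9-inh thus had opposite signs in the lines, with a difference of -2.01 ± 0.0929 for COL4A1 and -2.45 ± 0.0711 for COL4A2. Per kilobase of exon COL4A2 exceeded COL4A1 in every library. The ratio was 1.35 ± 0.115 in S100A9-inh, 1.93 ± 0.182 in Tr-BrM controls and 1.94 ± 0.0282 in BrM controls of PC9, and 1.76 ± 0.0659, 1.86 ± 0.0863 and 1.49 ± 0.0590 in H1650.

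COL4A3 (ENSG00000169031, chromosome 2, 227164565 to 227314792, forward strand) and COL4A4 (ENSG00000081052, chromosome 2, 227002711 to 227164453, reverse strand) had opposite changes in the lines. In H1650 COL4A4 had 29.4, 26.2 and 25.8 CPM in S100A9-inh, 19.9, 21.0 and 20.0 CPM in Tr-BrM controls and 2.21, 1.73 and 2.48 CPM in BrM controls. COL4A3 had 5.87, 3.63 and 4.75 CPM, 4.16, 3.95 and 4.18 CPM and 0.903, 0.409 and 0.532 CPM. Every Tr-BrM library of H1650 lay above every BrM library for both genes, with log2 changes of 3.26 ± 0.114 for COL4A4 and 2.71 ± 0.248 for COL4A3 in the controls. In PC9 COL4A4 had 1.79, 1.98 and 2.85 CPM in S100A9-inh, 0.312, 0.681 and 0 CPM in Tr-BrM controls and 2.84, 3.16 and 2.32 CPM in BrM controls, where the library at 0 could have held up to 0.153 CPM. COL4A3 had 1.11, 1.20 and 0.913 CPM, 0.365, 0.486 and 0.307 CPM and 2.60, 2.28 and 2.55 CPM. The PC9 Tr-BrM controls were the lowest group for both, and both rose under S100A9-inh, by 2.68 ± 0.413 for COL4A4 and 1.46 ± 0.357 for COL4A3. The difference between lines in Tr-BrM controls against BrM controls was -6.28 ± 0.353 for COL4A4 (adjusted p = 5.97e-19) and -5.37 ± 0.388 for COL4A3 (adjusted p = 1.62e-15). At these levels the PC9 values rest on few counts.

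The X-linked pair differed in level between its partners. COL4A5 (ENSG00000188153, chromosome X, 108439844 to 108697545, forward strand) had 110.2, 105 and 104 CPM in S100A9-inh, 77.3, 81.5 and 83.5 CPM in Tr-BrM controls and 101, 104 and 101 CPM in BrM controls of PC9. COL4A6 (ENSG00000197565, chromosome X, 108155607 to 108439497, reverse strand) had 63.1, 63.3 and 58.8 CPM, 41.6, 38.8 and 42.4 CPM and 64.5, 69.0 and 62.6 CPM. Both had their lowest libraries in the Tr-BrM controls, while S100A9-inh and BrM controls overlapped. In H1650, COL4A5 was at 34.3 ± 2.54 CPM, 31.6 ± 1.53 CPM and 38.2 ± 2.14 CPM, and COL4A6 at 3.59 ± 0.614 CPM, 3.70 ± 0.746 CPM and 3.60 ± 0.627 CPM. H1650 COL4A5 fell by 0.27 ± 0.0611 between the controls, and COL4A6 passed no test there. The change of H1650 COL4A5 in S100A9-inh against BrM controls (-0.15, adjusted p = 0.026) lost its call when replicate 2 of either group was left out (-0.10 without S100A9-inh replicate 2 and -0.12 without BrM control replicate 2). Against Tr-BrM controls, S100A9-inh COL4A5 of H1650 was not called (0.12) and passed the threshold without S100A9-inh replicate 2 (0.17). The ratio of COL4A5 to COL4A6 per kilobase was 1.35 ± 0.0405 in S100A9-inh, 1.55 ± 0.0952 in Tr-BrM controls and 1.22 ± 0.0405 in BrM controls of PC9. In H1650 it was 7.56 ± 0.742, 6.90 ± 1.62 and 8.46 ± 1.48.

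**Figure D3:**
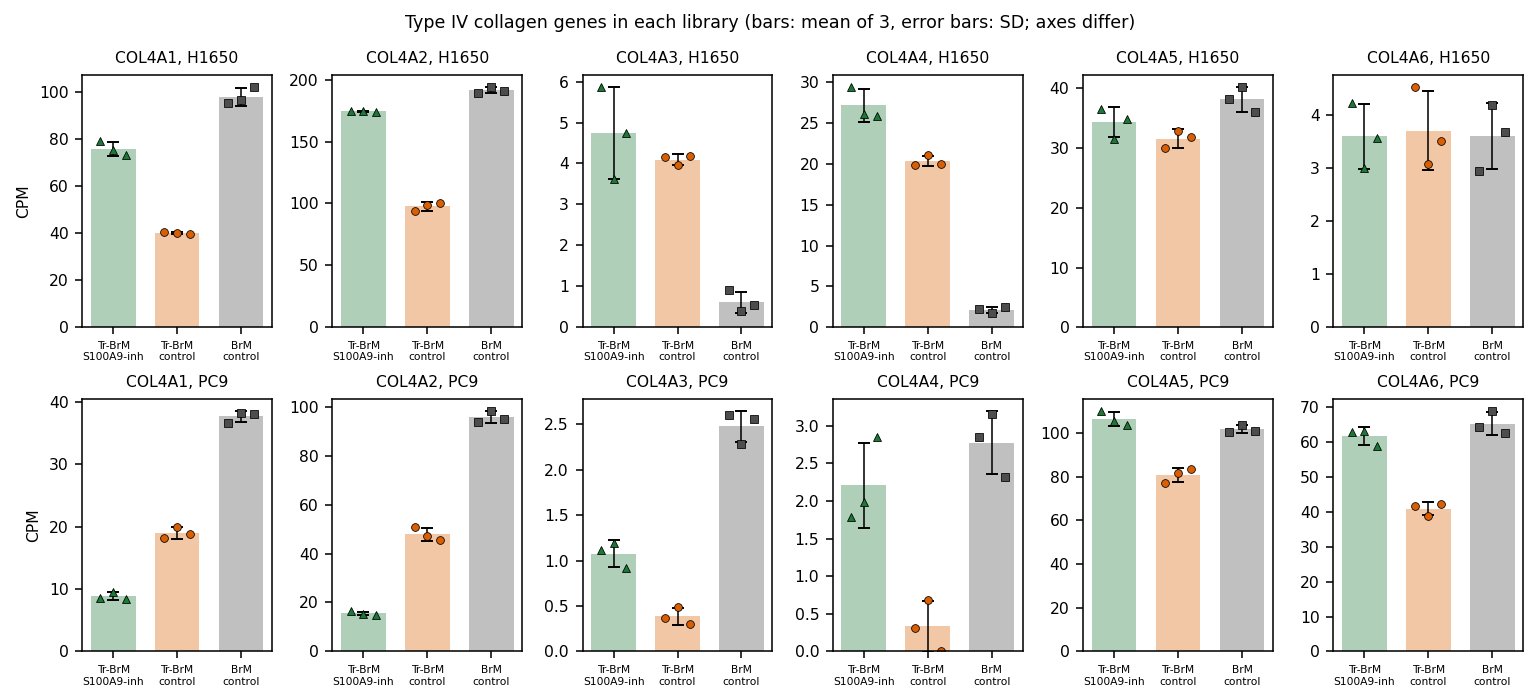
Type IV collagen genes in H1650 (upper row) and PC9 (lower row), with 1 panel per gene and its own CPM axis from 0; bars are means of 3 libraries, error bars SD and points single libraries, with S100A9-inh left, Tr-BrM control in the middle and BrM control right. The Tr-BrM controls are the lowest group for COL4A1 in H1650, at 39.8 to 40.7 CPM, whereas S100A9-inh is the lowest in PC9, at 8.43 to 9.59 CPM.

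The sequences between the starts of these pairs are shown because each separates the starts of a pair whose values are set side by side here. They are RefSeq sequences of GRCh38.p14, given 5′ to 3′ on the forward strand, with CCAAT and GGGCGG on either strand in capitals. The first interval is chr13:110307158-110307283, the second chr2:227164489-227164623, and the third is chrX:108439588-108439837, which holds 250 of the 379 bases between its genes.
COL4A2 and COL4A1: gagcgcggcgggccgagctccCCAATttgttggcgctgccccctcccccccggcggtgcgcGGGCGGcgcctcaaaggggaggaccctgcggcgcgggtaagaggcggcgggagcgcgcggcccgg
COL4A3 and COL4A4: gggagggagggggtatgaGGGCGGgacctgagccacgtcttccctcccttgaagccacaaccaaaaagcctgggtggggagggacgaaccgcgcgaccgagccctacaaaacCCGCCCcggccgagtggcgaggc
COL4A5 and COL4A6: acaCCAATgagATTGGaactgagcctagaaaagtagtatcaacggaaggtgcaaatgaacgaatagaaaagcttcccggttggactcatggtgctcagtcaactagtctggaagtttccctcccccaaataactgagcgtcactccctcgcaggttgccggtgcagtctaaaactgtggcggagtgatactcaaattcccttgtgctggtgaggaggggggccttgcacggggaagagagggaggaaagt
The interval between COL4A2 and COL4A1 is 126 bases long with 80.2% G and C, against a median of 60.3% over stretches of that length from 35116 promoters. It holds 1 CCAAT, which 21.1% of the promoters hold at that length, and 1 GGGCGG, which 34.6% hold. The interval between COL4A3 and COL4A4 is 135 bases long with 68.1% G and C, with 2 matches of GGGCGG (35.5% of promoters) and none of CCAAT (22.1%). The stretch between COL4A5 and COL4A6 has 51.2% G and C, 2 matches of CCAAT (32.0% of promoters) and none of GGGCGG (42.6%). TATAAA was found in none of the 3. Both strands were searched, the motifs do not overlap, and a match is a description of letters only. GENCODE 29 gives some genes other outermost starts, so that COL4A1 and COL4A2 overlap there by 1422 bases.

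Fibrillar collagens were the class in which the lines differed most in what was expressed. COL3A1 (ENSG00000168542, chromosome 2, 188974320 to 189012746, forward strand) encodes type III collagen, a homotrimer of extensible tissues. In H1650 it stood at 144, 144 and 144 CPM in S100A9-inh, 133, 132 and 122 CPM in Tr-BrM controls and 13.8, 14.2 and 12.2 CPM in BrM controls. All 6 Tr-BrM libraries lay far above the BrM controls, with a log2 change of 3.26 ± 0.0531 between the controls (adjusted p = 6.58e-28), and S100A9-inh lay slightly above Tr-BrM controls (0.16 ± 0.0378, adjusted p = 0.00182). In PC9 the gene had 5 counts over the 3 S100A9-inh libraries, 8 over the Tr-BrM controls and 1 over the BrM controls, and was not tested.

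COL1A1 and COL1A2 encode the chains of type I collagen, the main fibril of bone, tendon and scar. In H1650 COL1A1 (ENSG00000108821, chromosome 17, 50183289 to 50201632, reverse strand) had 16.1, 21.2 and 25.2 CPM in S100A9-inh, 25.2, 26.8 and 22.6 CPM in Tr-BrM controls and 7.14, 5.46 and 7.33 CPM in BrM controls. COL1A2 (ENSG00000164692, chromosome 7, 94394561 to 94431232, forward strand) had 9.51, 8.52 and 6.98 CPM, 8.06, 9.73 and 5.78 CPM and 1.49, 2.46 and 2.66 CPM. Both rose in Tr-BrM controls against BrM controls, by 1.92 ± 0.129 and 1.87 ± 0.193, and the Tr-BrM groups overlapped each other. In S100A9-inh against Tr-BrM controls H1650 COL1A1 was at -0.26 ± 0.104 (adjusted p = 0.0553), which passed the threshold without S100A9-inh replicate 3 (-0.43) or Tr-BrM control replicate 3 (-0.33). PC9 expressed COL1A1 at 19.0, 16.1 and 16.1 CPM in S100A9-inh, 14.9, 13.0 and 12.4 CPM in Tr-BrM controls and 25.9, 26.6 and 25.5 CPM in BrM controls, whereas COL1A2 had 2, 5 and 16 counts over the same groups. PC9 COL1A1 changed by -0.95 ± 0.0864 between the controls, and the difference between lines was -2.87 ± 0.164 (adjusted p = 9.80e-19). Under S100A9-inh PC9 COL1A1 rose by 0.34, a difference of 0.61 ± 0.152 between lines.

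Type V collagen, which nucleates type I fibrils, was represented mainly by COL5A1 (ENSG00000130635, chromosome 9, 134641774 to 134844843, forward strand). In H1650 it was at 262, 257 and 259 CPM in S100A9-inh, 195, 209 and 202 CPM in Tr-BrM controls and 303, 314 and 299.8 CPM in BrM controls. PC9 had 64.6, 67.2 and 65.4 CPM, 81.5, 79.2 and 81.4 CPM and 129.9, 127 and 124 CPM. BrM controls were highest in both lines, but S100A9-inh was above Tr-BrM controls in H1650 (0.36 ± 0.0324) and below them in PC9 (-0.30 ± 0.0468), a difference of -0.65 ± 0.0548 between lines. COL5A2, its partner chain, was at 5.96 ± 1.276 CPM, 7.19 ± 0.241 CPM and 6.51 ± 0.332 CPM in H1650 and passed no test there. Without S100A9-inh replicate 1, H1650 COL5A2 passed the threshold at -0.46 against Tr-BrM controls and at -0.31 against BrM controls. In PC9 COL5A2 was at 1.07 ± 0.107 CPM, 2.08 ± 0.434 CPM and 0.904 ± 0.425 CPM, higher in Tr-BrM controls than in BrM controls (1.19 ± 0.303) and lower in S100A9-inh than in Tr-BrM controls (-0.96 ± 0.296). Per kilobase COL5A1 exceeded COL5A2 by 29.8 ± 5.94 times in S100A9-inh, 18.7 ± 0.494 times in Tr-BrM controls and 31.3 ± 0.831 times in BrM controls of H1650. COL5A3, an alternative chain of type V, averaged 1.94 ± 0.183 CPM, 2.55 ± 0.165 CPM and 2.11 ± 0.491 CPM in H1650 and passed no test.

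The minor fibrillar genes were low. COL27A1, which is known from cartilage, had 7.05, 6.62 and 6.29 CPM in S100A9-inh, 3.48, 4.79 and 4.81 CPM in Tr-BrM controls and 0.858, 0.819 and 0.710 CPM in BrM controls of H1650. It rose by 2.45 ± 0.199 between the controls and by 0.60 ± 0.131 under S100A9-inh. In PC9 it was at 2.01 ± 0.114 CPM, 1.88 ± 0.614 CPM and 1.27 ± 0.312 CPM, where its change between the controls (0.56, adjusted p = 0.0785) passed the threshold without Tr-BrM control replicate 3 (0.81) or BrM control replicate 3 (0.78). COL24A1 averaged 1.38 ± 0.104 CPM, 0.929 ± 0.208 CPM and 0.0998 ± 0.0478 CPM in H1650 and rose by 3.16 ± 0.475 between the controls. COL11A2, a type XI chain of cartilage fibrils, averaged 1.35 ± 0.467 CPM, 1.82 ± 0.177 CPM and 2.63 ± 0.497 CPM. Its call between the H1650 controls (log2 change -0.51 ± 0.224, adjusted p = 0.0484) was lost when any 1 of 5 of the 6 control libraries was left out, with values from -0.56 to -0.40. In S100A9-inh against Tr-BrM controls H1650 COL11A2 was at -0.43 ± 0.239 and not called, and without S100A9-inh replicate 3 it passed the threshold at -0.76.

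Markers of fibroblasts, the main fibrillar collagen producers of tissue, were measured beside the fibrillar genes. In H1650 their summed level was 21.6 to 26.1 CPM in S100A9-inh, 24.4 to 28.3 CPM in Tr-BrM controls and 9.37 to 11.2 CPM in BrM controls. Of the 8 markers 7 were tested in H1650, and in Tr-BrM controls against BrM controls 5 rose, among them LUM (6.22 ± 0.383), POSTN (3.90 ± 0.193) and DCN (3.24 ± 0.348), and 1, FAP, fell (-0.70 ± 0.128), where 32.2% of all tested genes were higher and 31.7% lower. Of the 10 fibrillar collagens tested there, 6 rose, 2 fell, COL5A1 (-0.60 ± 0.0325) and COL11A2, and 2 were not called, COL5A2 and COL5A3. In PC9 the sum was 1.11 to 1.18 CPM, 0.153 to 0.778 CPM and 0.389 to 1.02 CPM, with DCN, LUM, PDGFRA, THY1 and DPT at 0 in every control library. The 1 marker tested there, PDGFRB, fell between the controls (-1.46) and rose under S100A9-inh (2.07). PDGFRB rose between the H1650 controls (1.97). The part of these markers in the collagen changes was not tested. In bulk RNA fewer cells of a type and less RNA per cell cannot be told apart.

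Fibril-associated collagens were led by COL12A1 (ENSG00000111799, chromosome 6, 75084326 to 75206051, reverse strand), which bridges type I fibrils and the surrounding matrix. In H1650 it stood at 275, 263 and 277 CPM in S100A9-inh, 269, 284 and 279 CPM in Tr-BrM controls and 87.6, 85.3 and 83.8 CPM in BrM controls. PC9 had 69.2, 67.9 and 71.0 CPM, 173, 181 and 184 CPM and 75.5, 82.4 and 74.8 CPM. Tr-BrM controls thus exceeded BrM controls in both lines, by 1.70 ± 0.0356 in H1650 and 1.21 ± 0.0463 in PC9. The S100A9-inh libraries overlapped the Tr-BrM controls in H1650 (-0.030 ± 0.032, adjusted p = 0.536). In PC9 they lay below every Tr-BrM control (-1.37 ± 0.0469, adjusted p = 8.02e-21) and a little below the BrM controls (-0.16 ± 0.0487). That last call was lost without BrM control replicate 2 (-0.12). The change under S100A9-inh differed between lines by -1.34 ± 0.0565 (adjusted p = 2.95e-22).

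COL16A1 (ENSG00000084636, chromosome 1, 31652247 to 31704319, reverse strand), another fibril-associated collagen, showed opposite changes in the lines. H1650 had 15.2, 15.2 and 15.3 CPM in S100A9-inh, 14.6, 15.3 and 14.4 CPM in Tr-BrM controls and 31.8, 33.9 and 33.2 CPM in BrM controls. PC9 had 15.00, 14.8 and 16.0 CPM, 28.6, 27.1 and 31.1 CPM and 17.2, 15.5 and 17.7 CPM. The Tr-BrM controls were the highest group in PC9 but lay below the BrM controls in H1650, and the difference between lines was 1.93 ± 0.1. COL14A1, which regulates fibril growth in tendon and skin, had 0.477, 0.337 and 0.153 CPM in S100A9-inh, 0.260, 0.366 and 0.194 CPM in Tr-BrM controls and 3.39, 3.73 and 2.96 CPM in BrM controls of H1650. It was the collagen with the lowest log2 change there, -3.56 ± 0.31. COL22A1, known from the junction of muscle and tendon, averaged 1.73 ± 0.370 CPM, 1.06 ± 0.241 CPM and 1.97 ± 0.5002 CPM in H1650. Its rise under S100A9-inh (0.71 ± 0.254, adjusted p = 0.0365) was lost without S100A9-inh replicate 1 or 2 or without Tr-BrM control replicate 1 or 2, with values from 0.58 to 0.67. In PC9, COL14A1 had 18 counts and COL22A1 had 6 over all 9 libraries.

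Type IX collagen is a trimer of COL9A1, COL9A2 and COL9A3 in cartilage. COL9A2 was at 11.4, 11.99 and 15.1 CPM in S100A9-inh, 8.91, 7.88 and 8.39 CPM in Tr-BrM controls and 7.06, 5.59 and 6.22 CPM in BrM controls of PC9, with no overlap between groups. In H1650 COL9A2 was at 3.26 ± 0.407 CPM, 3.64 ± 0.485 CPM and 1.18 ± 0.492 CPM, and COL9A3 at 3.40 ± 0.396 CPM, 4.49 ± 0.456 CPM and 1.495 ± 0.354 CPM. Both rose between the H1650 controls (1.64 ± 0.226 and 1.58 ± 0.184). PC9 COL9A3, at 3.12 ± 0.436 CPM, 2.69 ± 0.610 CPM and 4.09 ± 0.282 CPM, fell by 0.61 ± 0.184. H1650 COL9A3 was the single member called lower under S100A9-inh (-0.41 ± 0.153, adjusted p = 0.0453). That call was lost without S100A9-inh replicate 2 or 3 or without Tr-BrM control replicate 1 or 2, with values from -0.41 to -0.33. The remaining chain, COL9A1, had 6 counts over the 9 H1650 libraries and no count in PC9.

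Type VI collagen forms beaded filaments around cells from COL6A1, COL6A2 and a longer chain, usually COL6A3. COL6A1 (ENSG00000142156, chromosome 21, 45981737 to 46005050, forward strand) had 89.3, 83.0 and 82.0 CPM in S100A9-inh, 51.1, 51.9 and 51.6 CPM in Tr-BrM controls and 109, 107 and 107 CPM in BrM controls of PC9. COL6A2 (ENSG00000142173, chromosome 21, 46098097 to 46132849, forward strand), 93046 bases further on, had 39.9, 38.1 and 38.4 CPM, 29.9, 26.0 and 25.8 CPM and 38.8, 37.9 and 36.5 CPM. Tr-BrM controls were the lowest group for both, with log2 changes against BrM controls of -1.06 ± 0.0487 and -0.47 ± 0.067. Under S100A9-inh both rose, by 0.72 ± 0.0495 and 0.51 ± 0.067. In H1650 COL6A1 averaged 28.1 ± 4.65 CPM, 28.8 ± 4.05 CPM and 42.4 ± 1.86 CPM and COL6A2 23.3 ± 5.57 CPM, 22.6 ± 4.78 CPM and 34.4 ± 2.25 CPM. Both fell there between the controls (-0.56 ± 0.0861 and -0.59 ± 0.12), and both Tr-BrM groups overlapped each other.

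COL6A3 (ENSG00000163359, chromosome 2, 237324003 to 237414375, reverse strand) went against its partners in H1650. It had 5.07, 8.77 and 6.67 CPM in S100A9-inh, 8.32, 8.45 and 4.28 CPM in Tr-BrM controls and 0.768, 1.23 and 3.55 CPM in BrM controls, a rise of 2.03 ± 0.302 between the controls (adjusted p = 1.08e-06). Per kilobase its ratio to COL6A1 was 0.0654 ± 0.00773 in S100A9-inh, 0.0651 ± 0.0146 in Tr-BrM controls and 0.0121 ± 0.0101 in BrM controls. All H1650 groups therefore held far less COL6A3 than COL6A1. In PC9 COL6A3 had 12 counts over the S100A9-inh libraries, 6 over the Tr-BrM controls and 8 over the BrM controls. The alternatives to COL6A3 were also low, with COL6A5 at 10 counts and COL6A6 at 53 over the 9 H1650 libraries.

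Collagens that tie epithelium to matrix were abundant, each in its own line. COL17A1 (ENSG00000065618, chromosome 10, 104031286 to 104085957, reverse strand) stood at 295, 301 and 309 CPM in S100A9-inh, 296, 292 and 299 CPM in Tr-BrM controls and 449, 446 and 439.8 CPM in BrM controls of H1650. BrM controls were highest and the Tr-BrM groups overlapped, with log2 changes of -0.59 ± 0.0298 between the controls and 0.032 ± 0.0298 under S100A9-inh (adjusted p = 0.475). PC9 held it at 1.02 ± 0.212 CPM, 0.758 ± 0.150 CPM and 0.993 ± 0.176 CPM, and it passed no test there. COL7A1 (ENSG00000114270, chromosome 3, 48564073 to 48595267, reverse strand) had 153, 145 and 136 CPM in S100A9-inh, 129, 122 and 129 CPM in Tr-BrM controls and 391, 384 and 385 CPM in BrM controls of PC9. It fell by 1.61 ± 0.0423 between the controls (adjusted p = 4.24e-24) and rose by 0.19 ± 0.0432 under S100A9-inh. In H1650 COL7A1 averaged 11.3 ± 0.477 CPM, 12.4 ± 0.174 CPM and 8.05 ± 1.21 CPM and rose by 0.64 ± 0.0996 between the controls, a difference of -2.25 ± 0.0986 between lines. COL13A1, a transmembrane collagen of the neuromuscular junction and other adhesion sites, had 2.23, 2.67 and 2.52 CPM in S100A9-inh, 3.49, 5.497 and 4.76 CPM in Tr-BrM controls and 9.95, 12.1 and 10.8 CPM in BrM controls of PC9. Those groups did not overlap, and the log2 change of S100A9-inh against BrM controls was -2.14 ± 0.155.

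Multiplexins are basement membrane collagens whose C-terminal fragments, such as endostatin from COL18A1, act on vessels. COL18A1 (ENSG00000182871, chromosome 21, 45405137 to 45513720, forward strand) had 69.3, 74.7 and 65.9 CPM in S100A9-inh, 93.1, 92.0 and 95.4 CPM in Tr-BrM controls and 129, 130.0 and 122 CPM in BrM controls of PC9, with no overlap. In H1650 it averaged 22.6 ± 1.52 CPM, 24.5 ± 2.59 CPM and 18.4 ± 1.76 CPM, and its change between the controls differed between lines by -0.87 ± 0.0934. Of its exon bases 16.4% overlap SLC19A1 on the other strand, and reads of both genes cannot be told apart unless counting used strand. COL15A1 (ENSG00000204291, chromosome 9, 98943179 to 99070792, forward strand) had 9.21, 9.70 and 10.1 CPM in S100A9-inh, 5.82, 5.93 and 6.12 CPM in Tr-BrM controls and 1.04, 1.59 and 1.01 CPM in BrM controls of H1650. It rose by 2.27 ± 0.165 between the controls and by 0.70 ± 0.111 under S100A9-inh. In PC9 COL15A1 averaged 12.3 ± 0.690 CPM, 9.73 ± 0.729 CPM and 10.8 ± 0.986 CPM and rose under S100A9-inh alone (0.34 ± 0.104).

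The remaining expressed members were low. COL8A1, a short chain collagen of vessel walls and of the membrane beneath the corneal endothelium, had 1.84, 1.34 and 1.99 CPM in S100A9-inh, 0, 0.243 and 0.153 CPM in Tr-BrM controls and 0.147, 0.437 and 0.0464 CPM in BrM controls of PC9. It rose by 3.61 ± 0.538 under S100A9-inh (adjusted p = 1.35e-06), where the library at 0 could have held up to 0.156 CPM. H1650 COL8A1 averaged 1.44 ± 0.0411 CPM, 1.47 ± 0.326 CPM and 4.35 ± 0.312 CPM, and the change under S100A9-inh differed between lines by 3.62 ± 0.557. COL26A1 averaged 3.10 ± 0.563 CPM, 2.51 ± 0.193 CPM and 12.4 ± 0.848 CPM in H1650 and 4.83 ± 0.239 CPM, 8.24 ± 0.424 CPM and 6.15 ± 0.767 CPM in PC9. BrM controls were its highest group in H1650 and Tr-BrM controls in PC9. COL28A1, found around peripheral nerve in mice, averaged 3.29 ± 0.417 CPM, 3.38 ± 0.143 CPM and 0.622 ± 0.203 CPM in H1650 and rose by 2.40 ± 0.229 between the controls. In PC9 it averaged 2.91 ± 0.477 CPM, 2.04 ± 0.397 CPM and 1.88 ± 0.260 CPM.

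Of the genes tested under 1 CPM, COL21A1, a fibril-associated collagen of H1650, had 46 counts over the S100A9-inh libraries, 60 over the Tr-BrM controls and none over the BrM controls. Against a floor of 3 counts over the BrM group it was at least 12.1-fold higher in S100A9-inh, and for Tr-BrM controls this bound was 18.2-fold. COL8A2, COL11A1 and COL23A1 also rose between the H1650 controls, at group means under 0.725 CPM. COL20A1 in H1650 and COL11A2 in PC9 passed no test.

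S100A9-inh against Tr-BrM controls asks what differs under inhibition of S100A9 within the Tr-BrM condition. This comparison shares its Tr-BrM control libraries with the one above, so both are given side by side and not set against each other. In H1650 the basement membrane pair COL4A1 and COL4A2, COL5A1, COL4A4, COL15A1 and COL27A1 rose, as did COL3A1 by 0.16 ± 0.0378. COL12A1 (-0.030), COL1A1 (-0.26) and COL17A1 (0.032) were not called there. In PC9 the chains COL4A3 to COL4A6, both type VI chains, COL1A1, COL8A1 and COL9A2 rose, and COL4A1, COL4A2, COL12A1, COL16A1 and COL13A1 fell. Of the 36 members tested in H1650, 8 rose and 1 fell, where 29.2% of all tested genes were called (15.4% higher and 13.8% lower). Of the 25 tested in PC9, 11 rose and 9 fell, where 52.5% of all tested genes were called (26.3% higher and 26.1% lower). Without PC9 S100A9-inh replicate 1, the library that stood apart, 12 rose and 9 fell. No member changed by 1 or more on the log2 scale in H1650, where 1.11% of tested genes were higher and 0.931% lower by that much. In PC9 3 were higher and 3 lower by that much (4.92% and 2.89% of tested genes).

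Between lines, 18 of 24 members tested in both differed in this change, 11 with the PC9 change above that in H1650 and 7 with it below. Of all genes tested in both lines 49.4% differed (25.1% above and 24.4% below). In the whole joint fit 19 of 37 members differed, where 40.4% of genes did. Of the 18, 11 had opposite signs, a count that includes changes close to 0 and not called in a line. The share of all genes with opposite signs was not computed, so the count describes the members only. COL15A1 and COL4A4 rose in both lines. Only COL4A1, COL4A2 and COL5A1 were called in opposite directions, rising in H1650 and falling in PC9. The largest differences, PC9 minus H1650, were 3.62 ± 0.557 for COL8A1, -2.45 ± 0.0711 for COL4A2, 2.26 ± 0.38 for COL4A4 and -2.01 ± 0.0929 for COL4A1. Without PC9 S100A9-inh replicate 1, 17 members differed. The difference of COL15A1 (-0.36 ± 0.149) was not called but passed the threshold when any 1 of 8 single libraries was left out, with values from -0.42 to -0.36. That of COL27A1 (-0.4991 ± 0.275) did so without PC9 Tr-BrM control replicate 3 (-0.75), and that of COL5A2 (-0.68 ± 0.294) without any 1 of H1650 S100A9-inh replicate 3, PC9 Tr-BrM control replicate 2 or PC9 BrM control replicate 3 (-0.85 to -0.69). In PC9 alone the change of COL28A1 under S100A9-inh (0.5049 ± 0.217, not called) passed without S100A9-inh replicate 1 (0.60) or Tr-BrM control replicate 2 (0.62).

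**Figure D4:**
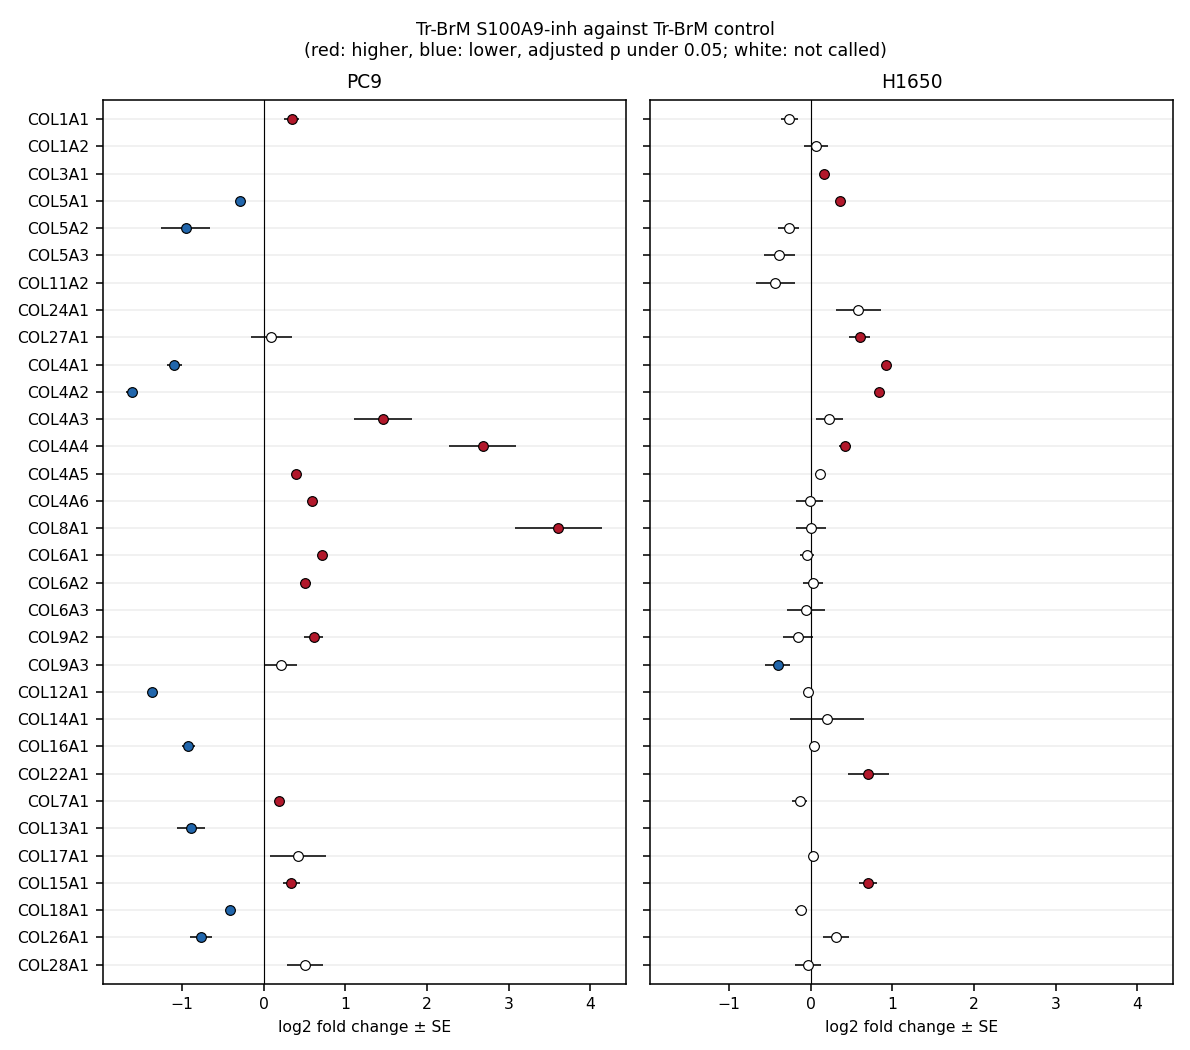
Log2 fold change ± SE of each expressed collagen gene in Tr-BrM S100A9-inh against Tr-BrM controls, with PC9 left and H1650 right on the same axis; red marks genes called higher, blue genes called lower and white genes not called. PC9 values run from -1.62 (COL4A2) to 3.61 (COL8A1), while H1650 values run from -0.43 (COL11A2) to 0.92 (COL4A1).

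S100A9-inh against BrM controls shares libraries with both comparisons above. In H1650 COL3A1 (3.41 ± 0.0523), COL4A4 (3.68 ± 0.108) and COL12A1 (1.67 ± 0.0354) were higher, and COL14A1 (-3.36 ± 0.292) and COL26A1 (-1.98 ± 0.124) lower. COL4A1 (-0.37 ± 0.0407) and COL4A2 (-0.14 ± 0.0325) were below BrM controls by small amounts. In PC9 COL4A2 (-2.62 ± 0.0623), COL4A1 (-2.08 ± 0.0807) and COL7A1 (-1.42 ± 0.0418) were lower, and COL8A1 (3.004 ± 0.489) and COL9A2 (1.03 ± 0.122) higher. COL4A5 (0.066), COL4A6 (-0.082), COL6A2 (0.040) and COL16A1 (-0.14) of PC9 were not called. Of the tested members, 17 were higher and 12 lower in H1650, where 63.6% of all tested genes were called (32.5% higher and 31.2% lower). In PC9 4 were higher and 11 lower, where 46.3% were called (22.7% higher and 23.6% lower). The PC9 calls of COL27A1 (0.65), COL28A1 (0.62) and COL26A1 (-0.35) were each lost without any 1 of several libraries, S100A9-inh replicate 3 and BrM control replicate 1 in all 3 cases. Values were then 0.52 to 0.70 for COL27A1, 0.49 to 0.56 for COL28A1 and -0.36 to -0.26 for COL26A1. PC9 COL9A3 (-0.40) was not called, and passed the threshold without S100A9-inh replicate 3 (-0.49). The count of higher members in PC9 was 3 without S100A9-inh replicate 1 and 2 without S100A9-inh replicate 3, BrM control replicate 1 or BrM control replicate 2.

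The genes that modify, fold and export collagen chains moved mostly down in the H1650 Tr-BrM controls. Of 23 such genes, 1 rose and 18 fell against BrM controls, with a median log2 change of -0.42, where 32.2% of all tested genes were higher and 31.7% lower. PLOD2, a lysyl hydroxylase of the cross-linking sites, changed by -2.12 ± 0.0337, the prolyl hydroxylase subunits P4HA2 and P4HA1 by -1.52 ± 0.0451 and -1.26 ± 0.0586, and the lysyl hydroxylase PLOD3 by -0.74 ± 0.0343. P3H3, a member of the prolyl 3-hydroxylase family, was the 1 that rose (1.85 ± 0.129). In PC9 22 were tested, of which 6 rose and 12 fell, with a median of -0.14, where 29.6% of all tested genes were higher and 30.3% lower. There P3H3 changed by 2.53 and PLOD2 by 0.47, and the PLOD2 difference between lines was 2.59 ± 0.063. SERPINH1, the collagen chaperone, changed by -0.84 ± 0.0468, FKBP10, a prolyl isomerase that aids lysyl hydroxylation, by -0.62 ± 0.0498 and the potassium channel of the endoplasmic reticulum TMEM38B by 0.88 ± 0.0694. Under S100A9-inh 7 rose and 2 fell in H1650, where 15.4% of all tested genes were higher and 13.8% lower. In PC9 9 rose and 9 fell, where 26.3% were higher and 26.1% lower. PLOD2 then changed by 0.62 ± 0.0346 in H1650 and -0.58 ± 0.0508 in PC9.

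Genes for the trimming of procollagen outside the cell, enzymes and enhancers together, were fewer. In Tr-BrM controls against BrM controls, 4 of 8 fell and none rose in H1650, and 3 of 4 tested fell and none rose in PC9. Over all tested genes 32.2% were higher and 31.7% lower in H1650, and 29.6% higher and 30.3% lower in PC9. With so few genes the counts describe these genes only. BMP1, the C-proteinase, changed by -0.68 ± 0.0446 in H1650 and -0.70 ± 0.0515 in PC9, and its enhancer PCOLCE2 by -3.33 ± 0.119 and -1.62 ± 0.147. ADAMTS14, an N-proteinase, fell in H1650 (-2.50 ± 0.136) and was not called in PC9 (0.44). Under S100A9-inh PCOLCE2 rose in both lines, by 0.48 ± 0.157 in H1650 and 1.87 ± 0.144 in PC9. Among 9 collagen receptors, of which 7 were tested in each line, the uptake receptor MRC2 fell between the controls in both lines (-1.53 ± 0.0609 in H1650 and -2.70 ± 0.156 in PC9). It rose under S100A9-inh in both (0.38 ± 0.0653 and 1.10 ± 0.184). The integrin chain ITGA1 fell between the H1650 controls (-1.08 ± 0.0462) and rose under S100A9-inh in H1650 (0.53 ± 0.0469) and PC9 (0.92 ± 0.129). DDR1, a receptor tyrosine kinase for collagen, rose in H1650 (0.37 ± 0.0312) and fell in PC9 (-0.51 ± 0.039) between the controls.

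**Figure D5:**
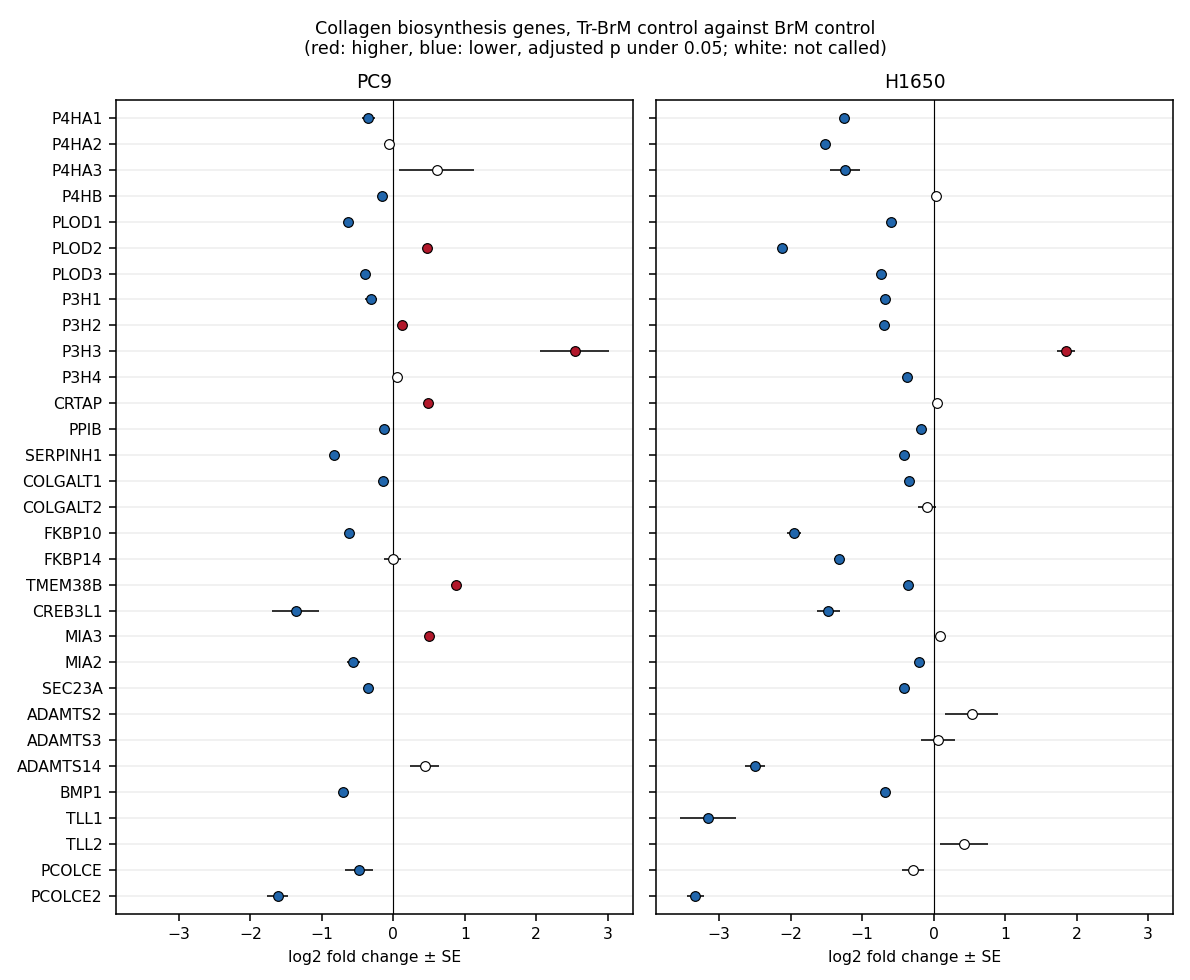
Log2 fold change ± SE of genes that modify, export or trim collagen chains in Tr-BrM controls against BrM controls, with PC9 left and H1650 right on the same axis; red marks genes called higher, blue genes called lower and white genes not called. In H1650 the values of PLOD2 (-2.12), PCOLCE2 (-3.33) and most others lie left of 0, with P3H3 at 1.85 on the right.

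Markers of other cell types were measured alongside. The 5 epithelial markers were high in all groups, with a summed level of 7497 to 7725 CPM in S100A9-inh, 7847 to 8124 CPM in Tr-BrM controls and 9186 to 9232 CPM in BrM controls of H1650. In PC9 they summed to 18877 to 20778 CPM, 17671 to 18058 CPM and 22505 to 22817 CPM, so the groups did not overlap in either line. The 4 lung adenocarcinoma lineage markers summed to at most 1.34 CPM in any library. Astrocyte markers summed to 169 to 180.0 CPM in S100A9-inh, 225 to 236 CPM in Tr-BrM controls and 28.4 to 38.6 CPM in BrM controls of H1650. SLC1A3 held most of that sum, at means of 141, 165 and 23.4 CPM, and GFAP followed at 31.7, 63.2 and 8.68 CPM. In PC9 the astrocyte markers summed to 33.1 to 36.5 CPM, 96.7 to 102 CPM and 15.0 to 15.6 CPM, with AQP4 at 0 in both Tr-BrM groups. Smooth muscle and pericyte markers summed to 27.02 to 28.9 CPM, 15.9 to 16.6 CPM and 4.59 to 6.33 CPM in H1650, and to between 4.23 and 7.49 CPM in PC9. TAGLN held most of the H1650 sum, at means of 26.4, 14.9 and 4.12 CPM. Log2 changes between the H1650 controls were 1.87 for TAGLN, 1.36 for DES and -1.52 for ACTA2, the latter 2 under 1 CPM. Endothelial markers summed to 5.18 to 7.72 CPM, 5.34 to 6.45 CPM and 1.13 to 3.32 CPM in H1650, and to 23.5 to 28.1 CPM, 40.3 to 41.2 CPM and 22.8 to 26.6 CPM in PC9. Leukocyte markers summed to 98.4 to 105 CPM, 83.1 to 89.4 CPM and 89.1 to 91.5 CPM in H1650, and to 18.9 to 23.1 CPM, 11.1 to 12.1 CPM and 30.8 to 31.9 CPM in PC9. CSF1R held most of the H1650 sum, at means of 96.0, 77.5 and 85.9 CPM. Log2 changes between the H1650 controls were 2.23 for PTPRC, -0.40 for CD14 and -0.15 for CSF1R. In PC9 they were 1.89 for CD14 and -2.01 for CSF1R. The part of all these markers in the collagen values was not tested.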

How the data were processed

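The RNA was poly-A selected and the libraries were TruSeq-compatible, per the labels' protocols. For H1650 and for PC9 the authors deposited raw gene counts of 9 libraries. STAR, GRCh38, R 4.0.1 and DESeq2 1.28.1 are named per the submitters' processing notes. The sources used here do not give the STAR version, the counting tool, the annotation or the use of strand. Identifier versions matched between the tables for 25 of 44 members, so gene models can differ between lines.

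A separate model per line (edgeR 4.0.16, R 4.3.3) used TMM factors, the filter filterByExpr and a quasi-likelihood test over the 9 libraries. P-values were adjusted by Benjamini-Hochberg over all 17937 (H1650) or 16169 (PC9) tested genes, with a threshold of 0.05. Replicates were close, with a common coefficient of 0.0335 (H1650) and 0.0433 (PC9) for their biological variation, so small differences can pass. The SE was computed by dividing the size of the log2 change by the root of the F statistic. Differences between lines were interaction contrasts in 1 model of 18 libraries. None of 18 replicate pairs was identical, and all differed beyond sampling noise. The scripts were tested on simulated counts. Alternatives were other scalings (RLE, upper quartile, library size), no filter, 2-group fits, DESeq2 1.42.0, a fold threshold of 1.5 and each library left out. Every member at 1 CPM or more in some group is named, with up to 4 genes per pathway list and comparison taken from those with the smallest p. P3H3 and the value of PLOD2 between the PC9 controls were added after their values were seen. The members and lists were chosen with earlier results of these data known.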

Additional observations from a re-analysis of the deposited data

Results flagged for a closer look

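All flagged collagen genes were flagged because their change differed between PC9 and H1650 in a test of the difference itself, an interaction contrast in edgeR's quasi-likelihood model over all 18 libraries (adjusted p under 0.05). Values are the log2 change in PC9 minus that in H1650, with 3 libraries in each group. Genes not called in either line, or called in both with the same sign, can be among them. In Tr-BrM controls against BrM controls 17 of 24 members tested in both lines were flagged, where 64.7% of all genes tested in both lines differed.

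The PC9 change was below that in H1650, with a difference of -6.28 for COL4A4, -5.37 for COL4A3, -2.87 for COL1A1, -2.42 for COL15A1, -2.29 for COL28A1, -2.25 for COL7A1, -2.19 for COL9A3, -1.89 for COL27A1, -1.23 for COL9A2, -0.87 for COL18A1, -0.69 for COL4A6, -0.51 for COL6A1 and -0.49 for COL12A1. It was above that in H1650, with a difference of 0.29 for COL4A1, 1.04 for COL5A2, 1.93 for COL16A1 and 2.71 for COL26A1.

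In S100A9-inh against Tr-BrM controls 18 of 24 were flagged, where 49.4% of all genes tested in both lines differed. The PC9 change was below that in H1650, with a difference of -2.45 for COL4A2, -2.01 for COL4A1, -1.34 for COL12A1, -1.07 for COL26A1, -0.96 for COL16A1, -0.65 for COL5A1 and -0.29 for COL18A1. It was above that in H1650, with a difference of 0.28 for COL4A5, 0.33 for COL7A1, 0.49 for COL6A2, 0.60 for COL4A6, 0.61 for COL1A1, 0.62 for COL9A3, 0.77 for COL6A1, 0.77 for COL9A2, 1.25 for COL4A3, 2.26 for COL4A4 and 3.62 for COL8A1. Both comparisons use the same Tr-BrM control libraries, so a gene flagged in both is not flagged by independent data. The values of COL9A3 and COL6A2 in S100A9-inh against Tr-BrM controls lost their call when some single libraries were left out, with COL9A3 between 0.50 and 0.61 and COL6A2 between 0.28 and 0.33. H1650 S100A9-inh replicate 1 and Tr-BrM control replicate 2 were such libraries for COL6A2, and for COL9A3 replicates of all groups but the PC9 BrM controls were.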

How the results depend on the processing

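Of 3790 values of single genes under the alternatives, 3632 kept their side of the threshold, 128 lost their call and 30 gained one. A change of direction was counted only where the main or the alternative fit called the gene, and 0 were found. Values called in neither fit were not compared for direction. Of the lost calls 68 came from asking for a change beyond 1.5-fold, 39 from leaving out 1 library, 9 from DESeq2 and 12 from the other settings. Beyond 1.5-fold, 6 of 21 called members of H1650 were lower in Tr-BrM controls against BrM controls. In S100A9-inh against Tr-BrM controls 2 were higher and 0 lower, and against BrM controls 4 of 19 called were lower. PC9 had 3 higher and 8 lower, then 4 higher and 4 lower, then 2 higher and 7 lower in these comparisons. Between lines, 7 members differed under S100A9-inh. The share of all tested genes beyond 1.5-fold was not computed, so these counts describe the members only. The 1 lower member of H1650 under S100A9-inh became 2 with library size alone and 0 with DESeq2 (lower at an unadjusted p under 0.05 were 3 members in edgeR and 1 in DESeq2), and ranged from 0 to 2 when libraries were left out. The 4 higher members of PC9 in S100A9-inh against BrM controls became 2 with DESeq2, and ranged from 2 to 4 when libraries were left out. At 5 CPM, 20 members were expressed in H1650. The cause was not tested. The length of the transcript with the longest coding sequence, chosen after seeing the data, moved 32 of 41 partner ratios by more than 1 SD, by the same factor in every group, to 2.34 ± 0.0880 for COL4A2 to COL4A1 in H1650 S100A9-inh, for example. No paired analysis was possible because the labels give no replicate numbers shared between groups. At this depth, members under about 1 CPM rest on few counts, and changes there were not detectable unless large.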

Other observations

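The collagen classes were also summed per library. In H1650 the 10 fibril-associated genes summed to 288 to 302 CPM in S100A9-inh, 295 to 311 CPM in Tr-BrM controls and 126 to 128 CPM in BrM controls, mostly through COL12A1. The 6 type IV chains there summed to 314 to 330 CPM, 193 to 200.3 CPM and 329 to 337 CPM, so that S100A9-inh overlapped BrM controls. In PC9 the fibril-associated genes summed to 97.7 to 106 CPM in S100A9-inh, 214 to 227 CPM in Tr-BrM controls and 103 to 108 CPM in BrM controls. The PC9 type IV chains summed to 190 to 201 CPM, 189 to 191 CPM and 301 to 315 CPM. The similar sums of the Tr-BrM groups of PC9 held different chains, since COL4A1 and COL4A2 were lower and COL4A5 and COL4A6 higher in S100A9-inh than in Tr-BrM controls. These sums weight genes by length and level and were not tested.

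Neighbouring collagen genes outside the head-to-head pairs did not all have like changes. COL3A1 and COL5A2 lie 19149 bases apart on chromosome 2, end to end, and in Tr-BrM controls against BrM controls of H1650 COL3A1 was at 3.26 ± 0.0531 and COL5A2 at 0.14 ± 0.128 (adjusted p = 0.342). On chromosome 21, COL18A1 lies 468016 bases before COL6A1. In S100A9-inh against Tr-BrM controls of PC9, COL18A1 was at -0.42 ± 0.0497 while COL6A1 was at 0.72 ± 0.0495 and COL6A2 at 0.51 ± 0.067. These pairs were chosen after their values were seen.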
